A study of Glycine max with 10 samples.

Results

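The genes described here are the 200 leaf transcripts of soybean by which 1 library, that of the resistant cultivar without aphids at day 1, stood furthest apart from the other 9 libraries of its series. They are 100 genes with more of their RNA in that library than in any other (the high members) and 100 genes with less (the low members). They were drawn from 22023 genes whose mean over all 10 libraries reached at least 5 CPM, out of 55983 genes in the table. CPM, the usual unit for sequencing counts, gives a gene's count relative to the total of its library, here after the TMM adjustment of edgeR, which corrects for a few abundant genes that take up a large share of the counts. On the scale of log2(CPM + 0.5), a gene's gap is the distance from the resistant day 1 control to the nearest of the other 9 libraries, and the 100 largest gaps in each direction were taken. The members were thus selected on the values of the resistant day 1 control and on the highest or lowest of the other 9, and the size of the gaps is a description without a test.

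The soybean aphid feeds on phloem sap, and Rag1 is a gene by which some soybean cultivars resist it. Biotypes of the aphid are named by the resistance genes they can overcome: biotype 1 does poorly on Rag1 plants, while biotype 2 can live on them. Feeding by a first aphid population can make a resistant or susceptible plant a better host for a later one, which is called induced susceptibility. The case of a virulent population that helps a later avirulent one is named obviation of resistance. Genes that vary between unattacked plants bear on such work, because each infested library is read against a control.

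The susceptible cultivar is given as LD12-15838R in the sample labels and the resistant one, with Rag1, as LD12-15813Ra. Control plants without aphids were collected from each cultivar on days 1 and 11 (4 libraries), as were plants that received an inducer of 50 biotype 2 aphids followed by 15 biotype 1 aphids (4 libraries), and plants with 15 biotype 1 aphids alone were sampled at day 11 (2 libraries). Each library held leaf RNA pooled from 3 replicates, which leaves 1 library per condition and no replicate check of any difference between conditions. Plant age is not given, and no batch or sequencing date is given in the sources used here.

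The libraries held between 23394065 and 25665558 estimated counts, a 1.10-fold range, so that 3 counts, the limit of detection used here, stood for between 0.104 and 0.158 CPM. This limit and all intervals below cover counting error only. The resistant day 1 control held 24598485 counts and had the lowest TMM factor of the 10 libraries, 0.774, against 0.896 to 1.16 in the others. Its 10 most abundant genes took 10.4% of its counts (4.60% to 9.83% in the others). None of these 10 genes and 1 of the 20 most abundant was a member. Many genes went against the labels. The clearest were high in the 3 susceptible libraries of day 11 and in the resistant library with the inducer of day 1, and near 0 in the 2 susceptible libraries of day 1 and the 3 resistant libraries of day 11, so that they followed neither cultivar nor day but their combination. Over all 22023 genes the former 4 libraries lay above the latter 5 without overlap in 14% and below them in 14.8%. The high members at the start of chromosome 13 are given apart, while other members with such an order stay in the pooled counts and medians. Genes carry identifiers of Wm82.a2.v1. As 0 of them matched the reference gene table, neither gene names nor roles can be given, the leaf identity of the samples was not checked against marker genes, and no promoter or protein sequences are shown. Chromosomes were read from the identifiers.

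The resistant day 1 control was the highest of the 10 libraries for 4174 genes (19%) and the lowest for 4108 (18.7%), so that rank alone set apart far more genes than the 200 described. It lay over 1 log2 unit above all other libraries for 75 genes (0.341%) and over 1 log2 unit below them for 41 (0.186%). All of these genes are members by construction. The gaps of the high members ran from 6.73 down to 0.93 log2 units with a median of 1.10, and those of the low members from 2.84 to 0.74 with a median of 0.95. At the edge of the selection the gaps were nearly continuous. Glyma.05G084600 was the last high member at 0.93 and Glyma.11G121700, at 0.93, the first gene outside, while Glyma.11G087200 at 0.74 and Glyma.14G085800 at 0.74 stood on both sides of the lower limit.

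The resistant day 1 control was not alone in having such genes. The susceptible day 11 control lay over 1 log2 unit above all others for 56 genes and below them for 102, and the susceptible day 1 control above for 51 and below for 2. The resistant library with the inducer at day 11 lay that far below the others for 53 genes and above for 5. The resistant day 11 control, the same cultivar and treatment at the later day, had 1 such gene above and 0 below. The susceptible day 11 control thus exceeded the resistant day 1 control in genes below the rest, while the resistant day 1 control had the most genes above the rest.

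**Figure D1:**
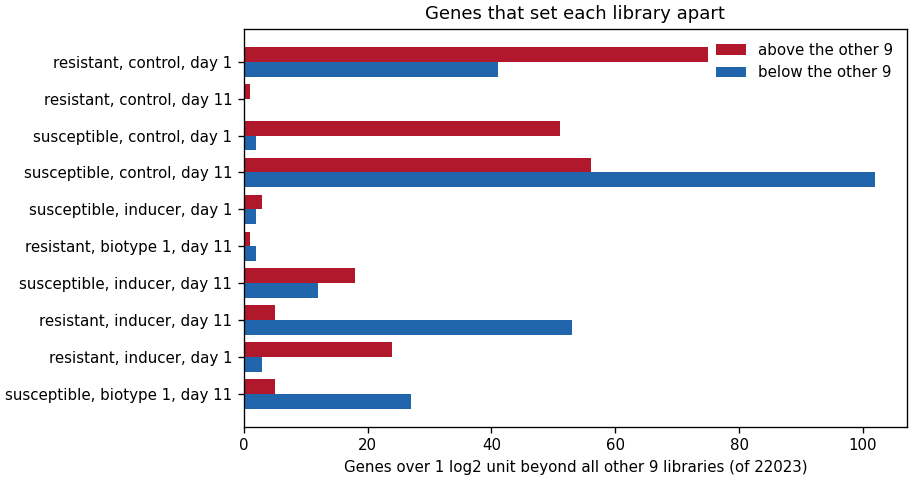
Number of genes, of the 22023 with a mean of at least 5 CPM, that lay over 1 log2 unit above (red) or below (blue) all 9 other libraries, for each of the 10 libraries in turn. The resistant day 1 control had 75 above and 41 below, and the susceptible day 11 control 56 above and 102 below.

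The normalization decides how these genes divide. With plain library totals in place of TMM, the median of all genes lay 0.40 log2 units lower in the resistant day 1 control than in the other libraries (log2 difference of -0.40, against -0.0034 with TMM), and the genes past 1 log2 unit became 25 above and 107 below. Of the 200 members, 165 remained among the 100 most extreme genes of their direction under that scaling. The split of a relative measure into higher and lower genes is therefore stated with TMM throughout.

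High members were abundant in the resistant day 1 control and modest elsewhere. Their median level was 73.2 CPM in that library, with a range of 12.2 to 7875 CPM, against a median of 7.26 CPM for the members' medians over the other 9. Of the 100, 41 exceeded 100 CPM there and 6 exceeded 1000 CPM, and the smallest count behind any of these values was 232. By mean CPM over all libraries, 23 high members lay between 5 and 10 CPM, 63 between 10 and 100 and 14 at 100 or more. Low members had a median of 3.65 CPM in the resistant day 1 control (0.210 to 110.0 CPM) against 11.5 CPM for their medians elsewhere. In leaf RNA of mixed cells, fewer cells of a type and less RNA per cell cannot be told apart. Of these, 17 fell under 1 CPM there, and the smallest count was 4, which is above the limit of detection of 3. By mean CPM, 35 low members lay between 5 and 10 CPM, 57 between 10 and 100 and 8 at 100 or more.

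**Figure D2:**
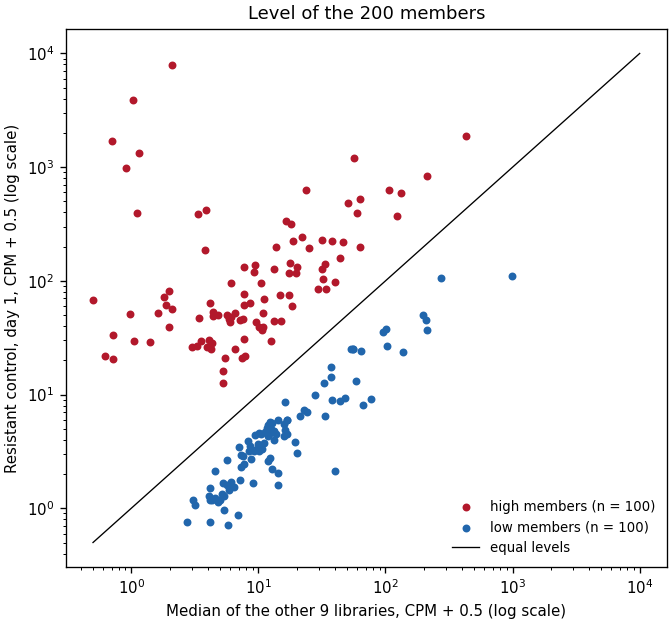
Level of each member in the resistant day 1 control (vertical axis) against its median over the other 9 libraries (horizontal axis), both as CPM + 0.5 on log scales, with 100 high members in red, 100 low members in blue and the line of equal levels. All high members lie above the line and all low members below it, as the selection requires, and the high members furthest to the upper left, near 0 in the median library, lie mostly at the start of chromosome 13.

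Both groups also varied more among the other 9 libraries than genes in general. The SD of log2(CPM + 0.5) over those 9 had a median of 1.22 in the high members and 0.68 in the low members, against 0.33 over all 22023 genes. The high members' values hence ranged widely even where the resistant day 1 control is left aside. The mean of at least 5 CPM that admitted genes included that library, however. Over the other 9, scaled by library totals, 86 high members reached it. Their medians over the other 9 were also lower, at 7.26 CPM for the median member against 16.0 CPM over all genes. The comparison of SDs is therefore not free of the filter or of level.

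The members made up a small part of the RNA. The high members took 2.43% of all counts in the resistant day 1 control and between 0.158% and 1.13% in the others, with a median of 0.495%, so that their share was 4.91 times that median. The low members took 0.0689% there and between 0.255% and 0.838% elsewhere, with a median of 0.422%. A few genes carried the high share. Glyma.13G024100 alone took 0.609% of the library's counts and Glyma.13G021100 0.299%, and 5 genes held 53.0% of the high members' counts. The 10 high members at the start of chromosome 13, described next, took 1.36%, and the remaining 90 took 1.06% against 0.107% to 0.443% in the others.

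Chromosome 13 held the most high members. It had 17 of the 100, 10 of them at its start, while 7.30% of the 22023 genes lie there. Chromosomes 2, 4, 8 and 11 followed with 8 each, against 5.58%, 4.78%, 7.12% and 5.02% of all genes. Chromosomes 16 and 20, with 3.58% and 4.30% of all genes, held 0. Low members numbered 9 each on chromosomes 2 and 6 (5.58% and 5.87% of all genes). They numbered 8 each on 10, 14 and 19 (5.37%, 3.86% and 4.61%) and 7 on chromosome 13. The spread over chromosomes was not tested. Of the high members, 18 had another high member within 10 genes of the rule on the same chromosome, of which 8 lay outside the start of chromosome 13. Among the low members 9 had such a neighbour. The share among genes in general was not computed, so outside the start of chromosome 13 these counts are not read as clustering. Glyma.16G153600 and Glyma.16G153700, both low members, lie next to each other. The former had 1.73 CPM in the resistant day 1 control against 6.85 to 40.7 CPM in the others, and the latter 44.9 against 116 to 374 CPM. Whether neighbouring members are near-identical copies was not examined, and Salmon, the tool behind the counts, divides reads that fit several transcripts among them, which leaves the level of a gene that has such a copy uncertain.

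Near the start of chromosome 13 the high members lay close together. Between Glyma.13G012000 and Glyma.13G024100, a stretch whose limits were chosen after the values were seen, lie 39 genes of the 22023, of which 10 were high members and 0 low members. The resistant day 1 control was the highest of all libraries in 28 of the 39 and the lowest in 0. Genes of this stretch are among those that went against the labels.

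Glyma.13G024100, the most abundant member, had 7875 CPM in the resistant day 1 control. It had 3635 CPM in the susceptible control, 3022 with the inducer and 4065 with biotype 1 alone at day 11, and 3621 in the resistant library with the inducer at day 1. In the 2 susceptible libraries of day 1 and the 3 resistant libraries of day 11 it lay between 0.693 and 1.58 CPM. The gap to the nearest library was 0.95 log2 units, a small step beside the distance between the 4 high and the 5 low libraries.

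Glyma.13G021100 had 3863 CPM in the resistant day 1 control, between 1638 and 1985 CPM in the same 4 libraries and at most 0.525 CPM in the same 5. Glyma.13G012000 had 1689, 701 to 879 and at most 0.208 CPM in the same order, and Glyma.13G012600 had 979, 386 to 509 and at most 0.407 CPM. In each of these the 4 libraries lay far above the 5, and the resistant day 1 control above both, as the selection requires. Glyma.13G015600, at 1861 CPM against 748 to 964 and 202 to 428 CPM, and Glyma.13G023200, at 830 CPM against 296 to 425 and 103 to 213 CPM, had the same order of libraries with smaller distances.

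Glyma.13G017700 behaved differently and had the largest gap of all genes. It had 67.0 CPM in the resistant day 1 control, from 1276 counts, and at most 3 counts in any of the other 9, where its highest value was 0.136 CPM. The ratio to the library with the inducer in the susceptible cultivar at day 11, which held those 3 counts, was 493, with a 95% counting interval from 168 to 2393. Glyma.13G012100 had 50.7 CPM against 4.13 to 6.44 CPM in the 4 libraries and at most 0.474 CPM in the 5, and Glyma.13G015400 had 392 CPM against 68.7 to 126 and at most 0.605 CPM. Glyma.13G022300 had 32.8 CPM against 0 to 10.5 CPM and at most 0.365 CPM, so that the 4 libraries overlapped the 5.

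**Figure D3:**
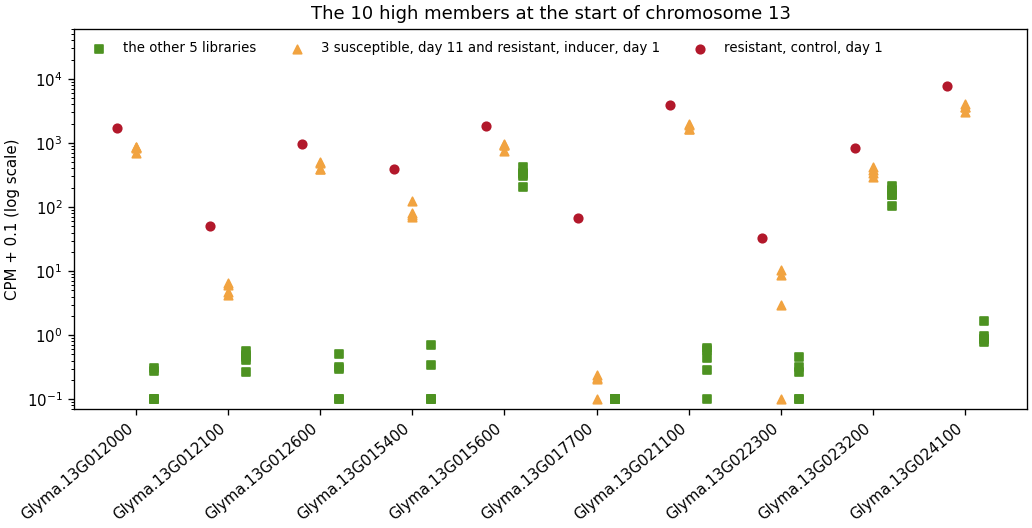
CPM + 0.1 on a log scale for the 10 high members at the start of chromosome 13, in the resistant day 1 control (red circles), in the 3 susceptible libraries of day 11 and the resistant library with the inducer of day 1 (orange triangles) and in the other 5 libraries (green squares). For 8 of the 10 genes all 4 triangles lie above all 5 squares, and the circle lies above both, as the selection requires.

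The 4 libraries lay above the 5 without overlap in 8 of these 10 members, while over all 22023 genes they did so in 14%. In 20 genes of the stretch the 4 libraries lay over 8-fold above the 5 in CPM + 0.5. Across these genes the level in the resistant day 1 control, also as CPM + 0.5, was 1.84 times the median of the 4 at the median gene. The range was 0.924 to 4.97. For the 5 high members among them that ratio ran from 1.99 to 4.97 with a median of 2.17. Glyma.13G012100, at 50.7 CPM against 4.13 to 6.44 CPM in the 4 libraries, was not among them on this scale. These ratios depend on the scaling. With plain library totals the gaps of Glyma.13G012000, Glyma.13G012600, Glyma.13G021100 and Glyma.13G024100 shrank to 0.36, 0.35, 0.44 and 0.44 log2 units. Outside the stretch Glyma.05G084600 had the same pattern, with 1330.01 CPM in the resistant day 1 control, 483 to 697 CPM in the 4 libraries and 0.264 to 0.646 CPM in the 5.

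Most high members followed another order. Of the 100, 44 had the resistant day 11 control as their nearest library, 17 the susceptible library with the inducer at day 1 and 12 the susceptible day 1 control. The libraries furthest from the resistant day 1 control were susceptible with biotype 1 alone for 36 members and resistant with the inducer at day 11 for 17. Relative to each gene's median over the other 9 libraries, the median high member was 2.99 log2 units higher in the resistant day 1 control, 1.12 in the resistant day 11 control, 0.84 in the susceptible day 1 control and 0.39 in the susceptible library with the inducer at day 1. It was lower in the susceptible library with biotype 1 alone (-0.98) and in the resistant library with the inducer at day 1 (-0.56). Among the 90 high members outside the start of chromosome 13 these values were 2.93, 1.23, 0.94, 0.66, -1.02 and -0.63.

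**Figure D4:**
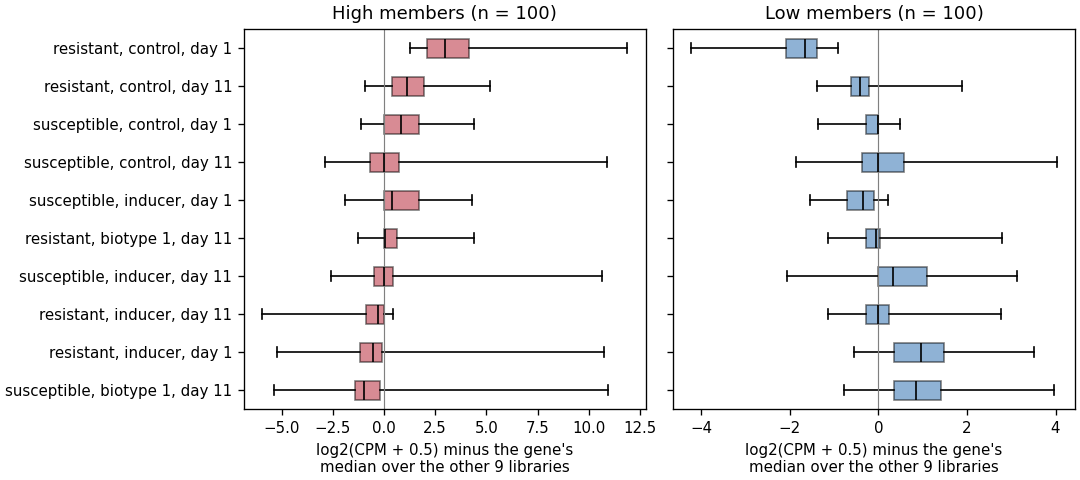
Values of log2(CPM + 0.5) minus each gene's median over the 9 libraries other than the resistant day 1 control, for 100 high members (left) and 100 low members (right) in each library. Boxes span the quartiles with the median as a line, and whiskers reach the lowest and highest gene. The medians of the resistant day 1 control, 2.99 and -1.67, were set by the selection, and those of the resistant day 11 control, 1.12 and -0.42, lay on the same side of 0.

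Glyma.14G195000 had 1214 CPM in the resistant day 1 control, 506 in the resistant day 11 control and 227 in the susceptible day 1 control. With the inducer it had 71.8 CPM in the susceptible and 8.43 CPM in the resistant cultivar at day 1, and 17.8 and 67.6 CPM at day 11. The susceptible day 11 control had 15.0 CPM, and biotype 1 alone 5.58 CPM in the susceptible and 56.2 CPM in the resistant cultivar. Both resistant controls and the susceptible day 1 control were thus above all infested libraries, while the susceptible day 11 control was among them. The combination of day and cultivar also parted this gene. The 5 libraries of susceptible, day 1 and resistant, day 11 had 56.2 to 506 CPM, against 5.58 to 17.8 CPM in the susceptible libraries of day 11 and the resistant library with the inducer at day 1.

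Glyma.02G228100 had 418 CPM in the resistant day 1 control, 141 in the resistant day 11 control, 82.5 in the susceptible day 1 control and 11.4 in the susceptible day 11 control. The 6 infested libraries had between 0.262 and 5.71 CPM, all below the 4 controls. Glyma.02G132100 had 523 CPM in the resistant day 1 control and 196, 165 and 153 CPM in the other controls, against 19.3 to 90.4 CPM in the infested libraries. In these genes the controls lay apart from the infested libraries at both days and in both cultivars. Glyma.17G096600 and Glyma.08G150800 had the same separation, with 194 CPM in the resistant day 1 control against 9.98 to 25.4 CPM in the infested libraries for the first, and 116 against 6.03 to 18.8 CPM for the second.

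Other high members did not separate controls from infested plants. Glyma.15G062700, with the second largest gap, had 337 CPM in the resistant day 1 control and 36.5 CPM in the susceptible day 1 control, but 1.75 CPM in the susceptible day 11 control and 30.3 CPM in the susceptible library with the inducer at day 1. The ratio to its nearest library, the susceptible day 1 control, was 9.23 with a 95% counting interval from 8.61 to 9.91. Glyma.15G180000 had 60.5 CPM in the resistant day 1 control, 13.8 and 8.72 CPM in the resistant day 11 and susceptible day 1 controls and 0.689 CPM in the susceptible day 11 control. Glyma.09G072000 (81.0, 21.4, 14.3 and 0.919 CPM in the same order) and Glyma.03G015800 (71.8, 20.02, 4.69 and 0.276 CPM) were likewise lowest in the susceptible day 11 control among the controls. In Glyma.15G180000 and Glyma.09G072000 the susceptible libraries of day 1 and the resistant libraries of day 11 lay above the susceptible libraries of day 11 and the resistant library with the inducer at day 1.

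Among the other 9 libraries, all 3 remaining controls lay above all 6 infested libraries in 12 of the 100 high members, against 3.29% of all 22023 genes, and all 12 lay outside the start of chromosome 13. All 3 remaining controls lay below the 6 infested libraries in 10 of the 100 low members, against 1.83% of all genes. By day, 0 high and 0 low members separated the other 9 libraries, against 0.118% of all genes in each direction. By cultivar, 0 high members and 1 low member did so, against 0.259% with the resistant libraries higher and 0.241% with them lower, so that counts near 0 were those of genes in general. The combination of day and cultivar separated more: the 3 susceptible libraries of day 11 and the resistant library with the inducer of day 1 lay below the other 5 in 26 high members and in 0 low members, against 14.8% of all genes. They lay above the other 5 in 34 low members and in 14 high members, against the 14% given above. The controls' highest or lowest value entered the selection, so these counts are not independent of it.

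Low members were the mirror of this order in part. Their nearest library was the susceptible one with the inducer at day 1 for 34 genes, the resistant day 11 control for 27 and the susceptible day 11 control for 20. The library furthest away was susceptible with biotype 1 alone for 41, resistant with the inducer at day 1 for 26 and susceptible with the inducer at day 11 for 19. Relative to the gene's median over the other 9, the median low member was at -1.67 in the resistant day 1 control, -0.42 in the resistant day 11 control and -0.35 in the susceptible library with the inducer at day 1, and at 0.95 and 0.85 in the resistant library with the inducer at day 1 and the susceptible library with biotype 1 alone.

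Glyma.06G043000, with the largest gap below, had 1.63 CPM in the resistant day 1 control, from 31 counts. The other controls had 14.7 CPM (resistant, day 11), 31.4 CPM (susceptible, day 1) and 48.7 CPM (susceptible, day 11). The infested libraries ran from 21.4 CPM in the resistant cultivar with biotype 1 alone to 258 CPM in the susceptible cultivar with biotype 1 alone, so that they overlapped the controls. The ratio of the resistant day 1 control to its nearest library, the resistant day 11 control, was 0.111 with a 95% counting interval from 0.0742 to 0.160.

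Glyma.05G182600 was unusual in being even elsewhere. It had 2.57 CPM in the resistant day 1 control and between 13.2 and 22.6 CPM in the other 9 libraries. Glyma.19G143300 had 0.210 CPM from 4 counts, against 2.11 to 16.0 CPM, and its gap rests on those few counts. Glyma.13G104300 had 1.16 CPM from 22 counts against 4.53 to 12.6 CPM.

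Among the abundant low members, Glyma.17G230700 had 110.0 CPM in the resistant day 1 control, 642, 681 and 373 CPM in the resistant day 11, susceptible day 1 and susceptible day 11 controls, and 571 to 1760.1 CPM in the infested libraries. Glyma.15G105900 had 36.8 CPM there, 146, 272 and 138 CPM in the same controls and 150.1 to 809 CPM in the infested ones. Glyma.19G105100 had 23.3 CPM against 67.6 to 392 CPM elsewhere, and Glyma.06G021200 26.4 against 67.2 to 250.1 CPM. The lowest of the other libraries was a control or the susceptible library with the inducer at day 1 in each of these 4 genes.

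To ask how the members behaved with aphids without the library that chose them, each infested library was set against the control of its own cultivar and day, which leaves 5 pairs. With 1 library on each side there is no test, and a gene past a 2-fold difference in CPM + 0.5 was counted. Pairs of 1 cultivar at day 11 share their control, so their counts are not independent of each other. In the resistant cultivar at day 11, 72 of the 100 high members were over 2-fold lower with the inducer than in the control, against 5.22% of all genes, and 46 were so with biotype 1 alone, against 3.17%. In the susceptible cultivar at day 11, 37 were over 2-fold lower with biotype 1 alone, against 6.51% of all genes, and 11 with the inducer, against 3.66%. In that pair with the inducer 9 were over 2-fold higher, against 5.33% of all genes. At day 1 in the susceptible cultivar, 14 were over 2-fold lower with the inducer, against 3.78% of all genes, and 12 were over 2-fold higher, against 2.98%. The median high member differed by -1.83 log2 units in the first pair, -0.90, -0.53 and -0.06 in the next 3 and 0.14 at day 1. Since 44 high members had the resistant day 11 control as the highest of the other 9 libraries, the pairs that hold it are not free of the selection.

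Low members were counted in the other direction. In the susceptible cultivar 37 of the 100 were over 2-fold higher with biotype 1 alone than in the control, against 2.68% of all genes, and 31 with the inducer, against 5.33%. In the resistant cultivar 14 were over 2-fold higher with the inducer, against 1.39%, and 7 with biotype 1 alone, against 0.808%. At day 1 in the susceptible cultivar 0 were over 2-fold higher with the inducer, against 2.98% of all genes, and 6 were over 2-fold lower, against 3.78%. The median low member differed by 0.81, 0.31, 0.41 and 0.35 log2 units in the 4 pairs of day 11 and by -0.30 at day 1. Here too the selection enters, since the lowest of the other 9 libraries was the susceptible one with the inducer at day 1 for 34 low members and a control for 49.

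**Figure D5:**
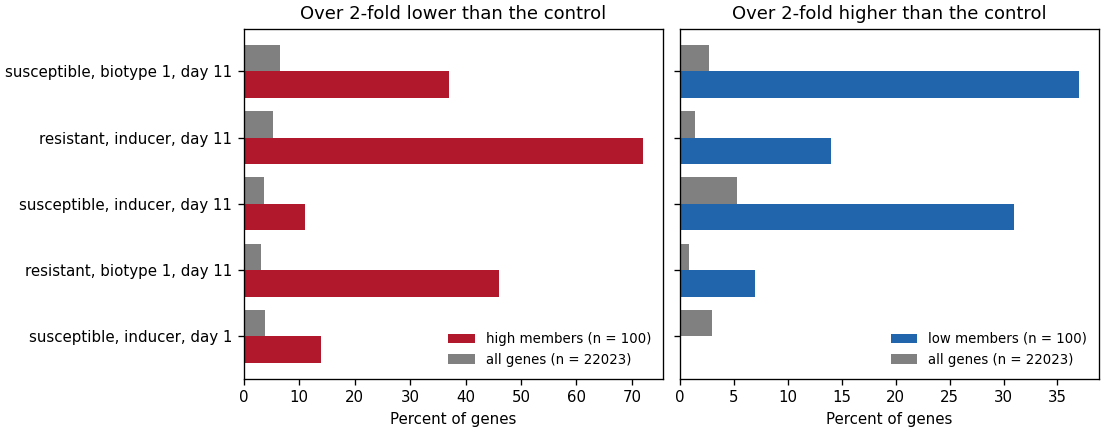
Percent of genes over 2-fold lower (left) or higher (right) in an infested library than in the control of the same cultivar and day, for 100 high members (red), 100 low members (blue) and all 22023 genes (grey), in 5 pairs without the resistant day 1 control. The share of high members was largest, at 72%, in the resistant cultivar with the inducer at day 11, and the blue bar of the susceptible cultivar at day 1 is 0.

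A test that leaves out the resistant day 1 control was then fitted over all genes of the other 9 libraries by the quasi-likelihood method of edgeR, with terms for cultivar, treatment and day. The spread came from what the model left unexplained, at 4 residual degrees of freedom, with a biological coefficient of variation of 0.529 (the typical relative SD between libraries). Of 37395 genes tested, among them 99 high and 100 low members, edgeR called 0 for the inducer against control at a Benjamini-Hochberg adjusted p under 0.05. At an unadjusted p under 0.05, 581 genes were lower (1.55%) and 332 higher (0.888%), and DESeq2 called 11 genes. Of the high members 11 were lower at that unadjusted level and 0 higher, with a median log2 difference of -0.83 and a negative sign in 80 of 99. Of the low members 6 were higher and 0 lower, with a median of 0.51 and a positive sign in 95 of 100. The median over all genes tested was 0.02. The highest of the other 9 libraries, which entered the selection, was a control for 67 of the 100 high members, and the lowest was a control for 49 of the low members, so these signs and medians are partly built in although the resistant day 1 control is left out. With 1 library left out the medians ran from -1.40 to -0.19 in the high members, the latter without the resistant day 11 control, and from 0.20 to 0.74 in the low members, with 0.20 without the resistant library with the inducer at day 1. None of these members passed the adjusted threshold in edgeR, and DESeq2 called 1 high member, at 0.0294% of all genes.

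For biotype 1 alone against control edgeR called 0 genes (133 higher and 624 lower before adjustment, against 17 calls in DESeq2), with medians of -1.001 in the high and 0.71 in the low members. These medians rest on single libraries: without the resistant day 11 control that of the high members was 0.087, and without the susceptible library with biotype 1 alone that of the low members was -0.013. DESeq2 called 1 high member for biotype 1 alone, at 0.0455% of all genes. For day it called 0 genes (15 and 144 before adjustment, 2 calls in DESeq2) and for cultivar 0 (319 and 118, 31 calls in DESeq2, or 0.0829% of genes, with 1 high and 2 low members among them). Without the resistant library with the inducer at day 1 the same test called 1288 genes for day (2.27% higher and 1.21% lower at day 11) and 5782 for cultivar (5.87% higher and 9.75% lower in the resistant one). Among them were 18 high and 9 low members for day, and 25 high and 29 low members for cultivar. In that fit day 1 is represented by susceptible libraries alone. For the inducer, the number of high members lower at the unadjusted level was 3 without the susceptible day 1 control, 2 without the resistant day 11 control, 7 without the resistant library with the inducer at day 11 and 35 without the susceptible library with the inducer at day 1. Among all genes, 237, 164, 455 and 1077 were lower in these fits, of 37268 to 37344 tested. The number of low members higher was 2, 3, 1 and 27 without the susceptible day 11 control, the resistant day 11 control, the susceptible library with the inducer at day 11 and the susceptible library with the inducer at day 1. Among all genes, 302, 121, 118 and 640 were higher, of 37214 to 37344 tested. The background thus moved with the library left out.

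The day difference was next allowed to differ between the cultivars. The interaction term is the change from day 1 to day 11 of the resistant cultivar, in log2 units, minus that of the susceptible one, and in the resistant cultivar day 1 is then the library with the inducer alone, which went against the labels as described above. A day response that differs between the cultivars and an exchange of the cultivar labels at 1 of the days, which would turn the term into a difference between cultivars, cannot be told apart by this term. The biological coefficient of variation fell to 0.285 at 3 residual degrees of freedom. edgeR called 3095 genes with a positive term (8.28%) and 5029 with a negative one (13.4%). Of the high members 22 had a called positive and 15 a called negative term, and of the low members 0 and 40. The 15 negative terms among 99 high members lay near the 13.4% of all genes. The medians were 1.71 in the high members, -1.62 in the low members and 0.02 over all genes tested. The highest or lowest of these same 9 libraries entered the selection. In the low members the lowest was the susceptible library with the inducer at day 1 for 34 and the resistant day 11 control for 27. In the high members the highest was the resistant day 11 control for 44. The signs, calls and medians of the term are therefore partly built in.

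The high members thus divided in part by place. At the start of chromosome 13, 9 of the 10 members were tested and all 9 had a called negative term. The 90 elsewhere had 22 called positive and 6 called negative terms, against 8.28% and 13.4% of all genes tested. The stretch was chosen after its values were seen, and the term sets much the same libraries against each other. Its 9 calls are therefore a description and no independent support. Among the called high members, Glyma.18G045200 had a term of 5.48 (SE 0.70, adjusted p = 0.00595, edgeR), Glyma.11G036500 one of 5.01 (SE 0.81, adjusted p = 0.0108) and Glyma.U017900.1 one of 5.47 (SE 1.02, adjusted p = 0.0164). Glyma.18G045200 had 30.2 CPM in the resistant day 1 control and between 7.25 and 11.8 CPM in the 5 libraries of susceptible, day 1 and resistant, day 11, against 0.375 to 1.77 CPM in the other 4. Glyma.11G036500 had 29.7 CPM, then 3.61 to 12.3 CPM and 0.940 to 1.99 CPM in the same order. In both genes the 5 libraries lay above the 4, the reverse of the start of chromosome 13.

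The smallest p-values among negative terms of high members were those of Glyma.13G021100 (-25.74, SE 1.51, adjusted p = 0.000766, edgeR), Glyma.13G024100 (-23.68, SE 0.96, adjusted p = 0.000228) and Glyma.05G084600 (-21.31, SE 0.61, adjusted p = 0.000104), and terms of this size rest on counts near 0 in 1 of the groups. Of the low members, Glyma.18G197800 had a term of -8.55 (SE 0.54, adjusted p = 0.000892), Glyma.20G232200 of -5.66 (SE 0.40, adjusted p = 0.00123) and Glyma.12G217300 of -3.98 (SE 0.31, adjusted p = 0.00157). Glyma.18G197800 had 0.998 CPM in the resistant day 1 control, 28.2 to 67.4 CPM in the 4 libraries and 2.04 to 3.67 CPM in the 5. Glyma.20G232200 had 3.26, 42.2 to 81.2 and 5.85 to 10.6 CPM, and Glyma.12G217300 4.20, 25.5 to 49.8 and 7.79 to 11.1 CPM. In these low members, as at the start of chromosome 13, the 4 libraries lay above the 5.

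The interaction could not be fitted without the resistant library with the inducer at day 1. With the resistant day 1 control put back, edgeR called 301 genes (0.149% positive and 0.654% negative), of which 0 high members were positive, 11 high members were negative and 0 low members were negative, and the median term of the high members was -0.013. Without the susceptible library with the inducer at day 1 the calls fell to 3099 genes, with 3 high members positive and 16 low members negative. Of the called high members only the negative ones, 14 or 15 wherever the model could be fitted with 1 library left out, changed little.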

How the data were processed

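Leaf RNA of 10 conditions, each pooled from 3 replicates, was sequenced from Illumina TruSeq stranded libraries. The authors trimmed reads with Trimmomatic 0.36 and deposited estimated counts per primary transcript of Wm82.a2.v1 from Salmon 0.9.1, without scaling. How Salmon was set for strand and bias is not given in the sources used here. Counts were rounded and scaled by TMM in edgeR 4.0.16 (R 4.3.3). Members were the 100 genes in each direction with the largest gap between the resistant day 1 control and the other 9 libraries, on log2(CPM + 0.5), at a mean CPM of at least 5.

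Genes over 0.5 CPM in at least 1 of the 9 remaining libraries were tested with edgeR (quasi-likelihood, robust, Benjamini-Hochberg adjustment) and, as an alternative, DESeq2 1.42.0. With 1 library per condition the p-values rest on model residuals, and the pools may differ technically as well. Counting intervals were exact at 95%. Data were simulated with 200 genes changed 8-fold and only that change. The gap rule found 99.0% of them over 21945 genes. For that rule the other 9 libraries were simulated without differences by cultivar, day or treatment. The rule also takes 100 genes per direction, the number that was changed. The 99.0% is therefore not the reliability of the selection on the real data. The interaction test found 73.0% over 36008 genes with 3 false calls, and the inducer test 100.0% over 36064 genes with 11 false calls. The simulated spread between libraries was smaller than in the real inducer fit, which had a biological coefficient of variation of 0.529. The 100.0% is therefore not the sensitivity of the inducer test on the real data.

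Members and lists were chosen with earlier results of these data known. Genes named were the 12 largest gaps per direction, the 8 high members most abundant in the resistant day 1 control, the 8 low members most abundant elsewhere and the 3 smallest p per fit and direction. Glyma.02G228100, Glyma.02G132100, Glyma.13G022300 and the genes at the limits of the selection were named after their values were seen. Not all of these genes are described singly. Keyword lists, marker genes and promoter motifs were not used, as 0 identifiers matched the reference table (assembly Glycine_max_v4.0). Figures were drawn with matplotlib 3.10.9.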

Additional observations from a re-analysis of the deposited data

Results flagged for a closer look

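The day difference differed between the cultivars, by the interaction test of edgeR over the 9 libraries other than the resistant day 1 control, for 22 high members with a positive term, 15 high members with a negative term and 40 low members with a negative term. Over all genes tested 8.28% were positive and 13.4% negative, so that the share of high members with a negative term lay near that of all genes. The named genes among them had terms of 5.48 (Glyma.18G045200), 5.01 (Glyma.11G036500), 5.47 (Glyma.U017900.1), -21.31 (Glyma.05G084600), -23.68 (Glyma.13G024100), -25.74 (Glyma.13G021100), -8.55 (Glyma.18G197800), -5.66 (Glyma.20G232200) and -3.98 (Glyma.12G217300). In the resistant cultivar the day 1 side of this test is 1 library, that with the inducer, and a day response that differs between cultivars cannot be told apart from an exchange of the cultivar labels at 1 of the days. The highest or lowest of the 9 libraries tested entered the selection of the members, so the counts and terms given here are not independent of it.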

How the results depend on the processing

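No paired analysis was possible because each condition has 1 library and no replicate number that could serve as a block. The pairs of infested and control library in the report carry no test. With 1 library per condition, nothing separates a condition from its pool. The 200 members kept between 140 and 194 of their number with 1 other library left out, 127 where the minimum of the mean was 1 CPM and 87 where it was 20 CPM. Genes over 1 log2 unit above and below the other 9 numbered 75 and 41 and became 25 and 107 with library totals, 48 and 11 with a pseudocount of 5, 123 above with a minimum of 1 CPM and 33 and 22 with one of 20 CPM. Past 2 log2 units they were 4 and 2. With 1 library left out they ranged from 76 to 181 above (181 without the resistant day 11 control) and from 38 to 75 below (75 without the susceptible day 11 control, 64 without the susceptible library with the inducer at day 1). DESeq2 called 2 genes for day, 31 for cultivar, 11 for the inducer and 17 for biotype 1 alone, where edgeR called 0, and among these 1 high member for the inducer, 1 for biotype 1 alone and 1 high and 2 low members for cultivar. At an unadjusted p under 0.05, high members lower with the inducer were 21 in DESeq2 and 21 with all 10 libraries (2 to 35 with 1 left out), and low members higher were 15 and 18 (1 to 27 with 1 left out). Among all genes, 791 were lower and 513 higher in DESeq2, of 37395 tested. With all 10 libraries 1272 were lower and 775 higher, of 37468 tested. Without the resistant library with the inducer at day 1 edgeR called 1288 genes for day and 5782 for cultivar, and 0 with any other library left out (0 to 1288 and 0 to 5782). The interaction gave 4044 genes at a minimum of 5 CPM, 301 with all 10 libraries and 3099 to 7482 with 1 left out (4773 without the resistant day 11 control, 4281 and 4441 without biotype 1 alone in the susceptible and resistant cultivar). High members with a positive term were 41 in DESeq2, 14 without a filter, 14 at a minimum of 5 CPM, 0 with all 10 libraries and 3 to 40 with 1 left out (10, 7 and 7 without the susceptible control, susceptible biotype 1 and resistant biotype 1 libraries of day 11, 40 without the resistant library with the inducer at day 11). Low members with a negative term were 0 with all 10 libraries and 16 to 42 with 1 left out, and those with a positive term 0 to 1. The cause of these changes was not tested. With 1 library left out, the median term for biotype 1 alone ran from -1.94 to 0.087 in the high members (0.087 without the resistant day 11 control) and from -0.013 to 1.15 in the low members (-0.013 without the susceptible library with biotype 1 alone). With all 10 libraries the median interaction term of the high members was -0.013. Other medians kept their sign for the inducer, biotype 1 alone and the interaction. Of the gaps of single named genes under the alternatives, 504 shifted by less than the gene's SD over the other 9 libraries and 10 by more, with 0 reversed. That SD can exceed the gap itself, as in Glyma.13G024100, with an SD of 5.97 and a gap of 0.95 log2 units. The count therefore does not measure how stable such gaps were. The alternatives for keyword lists and for motifs on the plus strand were not run.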
